A study of Mus musculus with 4 samples.

Results

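The 10 genes examined here encode the enzymes that make leukotrienes, the enzymes that convert one cysteinyl leukotriene into the next, and the leukotriene receptors. They were taken as a fixed list by name, from the 29245 gene columns of the deposited tables, and each was found, Cysltr2 in the tables of 1 fraction only. Pla2g4a (cytosolic phospholipase A2) releases arachidonic acid from membranes. Alox5 (5-lipoxygenase) and its membrane partner Alox5ap (the 5-lipoxygenase activating protein, FLAP) turn it into leukotriene A4. Lta4h hydrolyses that product to leukotriene B4, and Ltc4s joins it to glutathione to give leukotriene C4. Ggt5 and Dpep1 are cell-surface enzymes that trim leukotriene C4 to D4 and D4 to E4. Ltb4r1 is the high-affinity receptor for leukotriene B4, and Cysltr1 and Cysltr2 are receptors for the cysteinyl leukotrienes. Myeloid cells are the classical makers of leukotrienes, which draw neutrophils into injured tissue and make small vessels leak, and cells that lack 5-lipoxygenase can convert leukotriene A4 passed on by a neighbour.

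RNA of single wells was sequenced from hearts of C57BL/6 mice, 2 wild-type (WT1 and WT2) and 2 labelled KO; Mst1/2-deficient (KO1 and KO2). Centrifugation divided each cell suspension into a cardiomyocyte fraction (CM) and a non-cardiomyocyte fraction (NCM), and each genotype and fraction was run on a chip of its own, so chip and genotype cannot be told apart within a fraction. No treatment, infarct, age, deleted allele or Cre driver is named in the labels used here. The series title speaks of a leukotriene B4 receptor 1 antagonist given with an MST1/2 inhibitor for myocardial infarction, and the list covers that receptor and its pathway, but no treated group is among these samples. Values are UMI counts (distinct molecules, counted by their molecular identifiers) per well, given below as CPM, the UMIs of a gene per 1000000 UMIs of the animal outside mitochondrial (mt-) and haemoglobin (Hba-, Hbb-) genes. Intervals and limits for a count of 0 cover counting error only. The animals are the replicates (n = 2 per genotype), so with 2 against 2 the smallest exact two-sided permutation p is 0.333.

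Wells with at least 10000 UMIs and 300 genes were kept, which left 692, 703, 715 and 747 NCM wells and 210, 274, 264 and 385 CM wells of WT1, WT2, KO1 and KO2. The NCM wells of the 4 animals held 26447307 to 93816921 UMIs outside mitochondrial and haemoglobin genes. Mitochondrial genes took 7.45 and 11.2% of the UMIs of WT1 and WT2 NCM wells and 58.1 and 36.5% in KO1 and KO2 and both KO animals held fewer UMIs outside these genes than either WT animal. Pairs of chips shared 60 to 400 well barcodes. In NCM wells the transcript of Stk4 (the kinase MST1) stood at 53.1 and 47.3 CPM in WT animals versus 45.8 and 37.5 in KO. Stk3 (MST2) stood at 23.5 and 38.6 in WT animals versus 29.0 and 26.3 in KO. Which part of either gene was deleted is not given in the sources used here, so these levels do not check the labels. Cardiomyocyte markers took 0.113 to 0.595% of NCM UMIs.

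Of the 10 genes, 9 had a UMI in both NCM and CM wells, and Cysltr2 had UMIs in NCM wells only. RefSeq promoter sequence (GRCm38.p6) was found for 7 of the 10 genes. The 250 bases before the start site are shown for 4 of them, from the steps of synthesis, conversion and reception, because the results below set their levels apart by kind of well or, for Ltb4r1, because it is the receptor in the series title: Alox5 (oxygenation, chr6:116461179-116461428, minus strand), Ltc4s (leukotriene C4 synthesis, chr11:50238533-50238782, minus strand), Dpep1 (conversion, chr8:123185985-123186234, plus strand) and Ltb4r1 (receptor, chr14:55765712-55765961, plus strand). Each is written 5′ to 3′ on the strand of the gene, with capitals at matches on either strand to GAGGAAG (a core bound by PU.1, a myeloid factor), GGGCGG (the GC box), TATAAA (the TATA box) or TTGCGCAA (the palindrome bound by C/EBP factors), a motif list chosen with results of these data known.
Alox5: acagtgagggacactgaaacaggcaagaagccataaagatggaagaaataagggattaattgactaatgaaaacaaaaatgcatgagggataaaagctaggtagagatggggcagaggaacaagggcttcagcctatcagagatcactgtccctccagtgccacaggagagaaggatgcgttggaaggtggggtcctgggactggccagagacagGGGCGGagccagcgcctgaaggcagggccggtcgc
Ltc4s: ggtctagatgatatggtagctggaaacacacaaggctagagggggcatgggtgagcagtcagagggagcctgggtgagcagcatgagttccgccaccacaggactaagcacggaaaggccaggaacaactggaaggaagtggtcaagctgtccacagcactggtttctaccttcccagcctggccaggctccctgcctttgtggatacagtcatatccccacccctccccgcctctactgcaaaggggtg
Dpep1: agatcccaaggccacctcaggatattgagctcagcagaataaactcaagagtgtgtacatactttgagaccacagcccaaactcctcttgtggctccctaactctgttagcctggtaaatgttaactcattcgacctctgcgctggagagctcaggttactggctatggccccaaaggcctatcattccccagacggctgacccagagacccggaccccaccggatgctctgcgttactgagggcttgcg
Ltb4r1: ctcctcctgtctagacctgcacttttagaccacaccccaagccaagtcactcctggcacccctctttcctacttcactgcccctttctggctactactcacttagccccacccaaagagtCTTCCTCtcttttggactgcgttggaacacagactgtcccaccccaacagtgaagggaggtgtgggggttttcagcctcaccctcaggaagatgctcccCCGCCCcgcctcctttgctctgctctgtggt
Alox5 held 1 GGGCGG. Ltb4r1 held 1 GGGCGG and 1 GAGGAAG, both on the opposite strand (written CCGCCC and CTTCCTC). None of the 4 motifs was written in the Ltc4s or Dpep1 window. Of 32851 mouse promoters of the same length, 32.7% held GGGCGG, 10.6% GAGGAAG, 12.4% TATAAA and 0.164% TTGCGCAA, and the matches in these 4 windows did not overlap each other. A match is a string of letters and says nothing of whether a factor binds there.

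Over all NCM wells, Alox5ap (chr5:149264767-149288153) stood at 536 and 509 CPM in WT1 and WT2, against 278 and 383 in KO1 and KO2. Dpep1 (chr8:123186242-123201812) stood at 176 and 229 in WT animals versus 99.9 and 92.7 in KO. Pla2g4a (chr1:149829618-149961290) stood at 71.8 and 59.6 in WT animals versus 54.8 and 41.3 in KO. For these 3 genes both KO animals lay below both WT animals. The 5-lipoxygenase Alox5 (chr6:116410077-116461178) was sparse, at 6.15 and 4.06 in WT animals versus 2.38 and 3.57 in KO, again with no overlap. Groups overlapped for the other synthetic enzymes. Ltc4s (chr11:50236461-50238616) stood at 63.3 and 107 in WT animals versus 23.9 and 75.2 in KO, and Lta4h (chr10:93453411-93484875) at 42.5 and 38.1 in WT animals versus 48.1 and 36.7 in KO. They also overlapped for the conversion enzyme Ggt5 (chr10:75589340-75617200), at 15.3 and 20.7 in WT animals versus 14.7 and 38.0 in KO. Among receptors, Cysltr1 (chrX:106574346-106603679) stood at 45.0 and 25.7 in WT animals versus 35.2 and 61.2 in KO. Ltb4r1 (chr14:55765962-55768494) stood at 1.43 and 2.07 in WT animals versus 2.12 and 1.44 in KO, from 449 UMIs in all. Cysltr2 (chr14:73025603-73049114) had 46 UMIs in WT2, 3 in KO1 and 0 in WT1 and KO2, where the limit that 3 UMIs sets is 0.0354 and 0.0555 CPM. Coordinates are of mm10, and these spans overlap other annotated genes for Alox5ap, Ltc4s, Cysltr1, Pla2g4a, Dpep1 and Ggt5, on the opposite strand or, for Dpep1 and 1 small RNA at Cysltr1, on the same strand. The strand setting of the count is not given in the sources used here, so reads of those partners cannot be told apart from these genes.

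**Figure D1:**
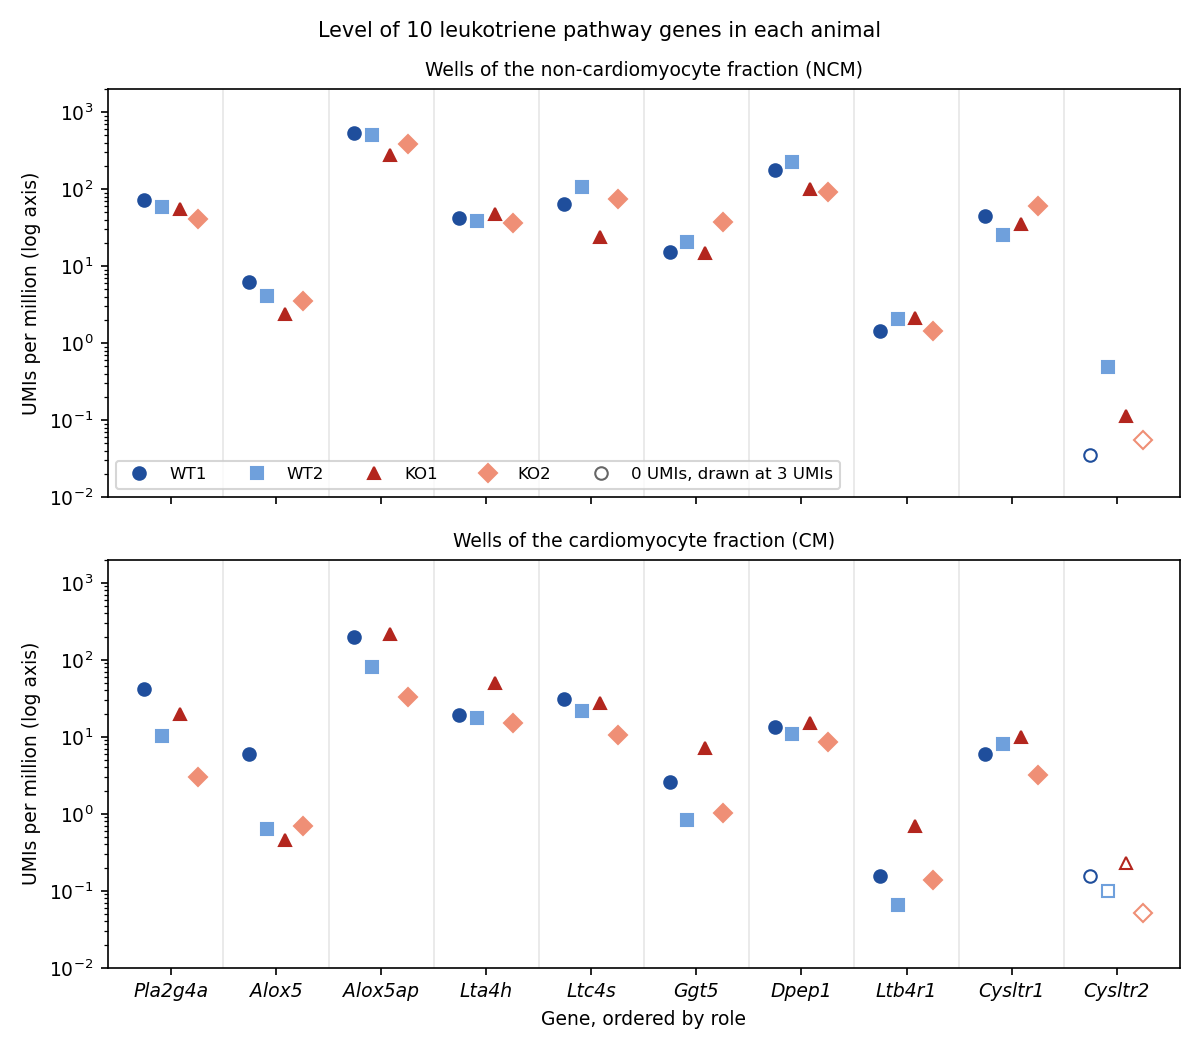
CPM outside mitochondrial and haemoglobin genes (log axis) of the 10 genes in each of the 4 animals, for NCM wells (top) and CM wells (bottom). Open symbols stand for 0 UMIs and are drawn at the level of 3 UMIs; in NCM wells both KO symbols lie below both WT symbols for Pla2g4a, Alox5, Alox5ap and Dpep1.

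Wells were grouped by clustering with the 10 genes left out, and clusters took a name only from marker genes. This gave macrophage-like (311 NCM wells), neutrophil-like (187), fibroblast-like (510), endothelial-like (667), endocardial-like (71), pericyte-like (44) and T or NK cell-like (42) wells. A cluster of 84 NCM wells led by class II genes and Igkc is called the class II-high cluster, a name settled after its leading genes were seen. Clusters 0, 5 and 6 took no name. Cluster 0 (234 NCM wells) was led by small RNA genes and Cd74, cluster 5 (265) by the lymphatic genes Ccl21a and Mmrn1, and cluster 6 (436) by Ankrd29 with cardiac muscle genes such as Mb and Myh6. Comparisons between classes are descriptions, with no test.

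Alox5ap ran highest in macrophage-like, neutrophil-like and class II-high wells. It stood at 1284 and 1260 CPM in macrophage-like wells of WT1 and WT2 and at 727 and 934 in KO1 and KO2. Neutrophil-like wells held 1584 and 1463 in WT animals versus 693 and 758 in KO, and the class II-high cluster held 1216 and 1314 in WT. The ranges of these 3 groups of wells over the animals overlapped. Within each WT animal the neutrophil-like level lay above the macrophage-like level, and within each KO animal below it. The other classes, where an animal had at least 20 wells of them, lay lower, up to 545 in cluster 6 of WT1, with fibroblast-like wells of WT2 at 38.3. With each well thinned to 10000 UMIs outside mitochondrial and haemoglobin genes, 91.3% of macrophage-like wells, 74.7% of neutrophil-like wells and 73.4% of class II-high wells still held an Alox5ap UMI, against 25.9% of fibroblast-like and 29.6% of endothelial-like wells. Free RNA can give UMIs in wells that do not express a gene, and 20 negative control wells held 2 Alox5ap UMIs among 5912 UMIs in all.

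Alox5 itself was found in few wells. Of the 2857 NCM wells, 119 had an Alox5 UMI, 48 of them just 1, while 25 wells had at least 10 (a threshold set after the counts were seen). Macrophage-like wells made up 10 of these 25 and neutrophil-like wells 8. In neutrophil-like wells Alox5 stood at 53.1 and 15.1 CPM in WT1 and WT2, and KO1 and KO2 had 0 and 1 UMI. In macrophage-like wells it stood at 9.34 and 7.62 in WT, with 1 UMI in KO1 (0.363) and 4.44 CPM in KO2. T or NK cell-like, endocardial-like and pericyte-like wells had 0 Alox5 UMIs. Single wells weighed heavily. A single well held 120 of the 180 Alox5 UMIs in macrophage-like wells of WT1, and 1 cardiomyocyte-like well held 115 UMIs, or 30.2% of the Alox5 UMIs of WT2. In KO1 and KO2, 55.6 and 53.4% of the Alox5 UMIs lay in cluster 6, where 1 well of KO1 held all 35 and 1 well of KO2 held 69 of 103.

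The 2 enzymes that use leukotriene A4 were placed differently. Macrophage-like wells held Ltc4s at 135 and 346 CPM in the WT animals, with 36.7 and 116 in KO1 and KO2. Neutrophil-like wells held 2.56 to 49.5 over the 4 animals and fibroblast-like wells 7.96 to 25.3. The macrophage-like level was not above every other class in each animal: cluster 6 reached 185 in WT1 with 359 of its 562 UMIs in 1 well, and cluster 5 reached 285 in KO2 with 913 of its 945 UMIs in 1 well. The 13 pericyte-like wells of WT1 stood at 211, and cluster 5 of KO1 at 40.0. After thinning, 30.1% of macrophage-like wells had an Ltc4s UMI, against 9.77% of neutrophil-like, 7.78% of fibroblast-like and 10.9% of endothelial-like wells. Cluster 0 (16.1%) and the 44 pericyte-like wells (15.9%) came next. In WT1 alone the pericyte-like share was 46.2%, beside 25.7% of macrophage-like wells. Lta4h was spread over the classes. It stood at 136, 70.7, 59.2 and 37.2 CPM in endothelial-like wells of WT1, WT2, KO1 and KO2 and at 36.1, 39.7, 56.3 and 56.7 in fibroblast-like wells. Macrophage-like wells held 19.3 to 44.6 and neutrophil-like wells 1.16 to 23.3, and these ranges overlapped with those of most other classes.

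Most UMIs of Pla2g4a and Dpep1 lay in fibroblast-like wells in most animals. Fibroblast-like wells held 53.8, 59.2, 40.9 and 61.2% of all Pla2g4a UMIs of NCM wells in WT1, WT2, KO1 and KO2. Such shares also follow how much of all RNA the class held. Of all NCM UMIs outside mitochondrial and haemoglobin genes, fibroblast-like wells held 37907262 of 84733290, 30782318 of 93816921, 6594528 of 26447307 and 15479814 of 54008036 in these animals. The level there stood within 86.3 to 107 CPM in all 4 animals, against 11.2 to 20.7 in endothelial-like wells. Macrophage-like wells ranged from 18.3 in KO2 to 130.0 in KO1, where 1 well held 171 of 358 UMIs, and cluster 0 stood at 171 and 103 in WT1 and WT2. In WT1 cluster 0, cluster 6 (125, with 258 of 378 UMIs in 1 well), the 19 endocardial-like wells (199) and the 8 T or NK cell-like wells (105) lay above the fibroblast-like level of 86.3. Of Dpep1, fibroblast-like wells held 82.4, 87.7, 69.8 and 46.6% of its NCM UMIs in the 4 animals, at 324, 611, 279 and 151 CPM. The 22 endocardial-like wells of KO2 stood at 293, with 541 of their 592 UMIs in 1 well, and at 34.5 without it. After thinning, 54.7% of fibroblast-like wells had a Dpep1 UMI, against 12.6% of macrophage-like wells and 26.3% of cluster 0, the next highest class. Ggt5 UMIs lay in fibroblast-like wells for 54.0 and 57.3% in WT but for 23.2 and 6.67% in KO. In KO2, 1 well of cluster 5 held 1363 of the 2053 Ggt5 UMIs (66.4%), so the KO2 share of 6.67% rested largely on that well. The same well held 24.0% of all Ggt5 UMIs of NCM wells.

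Of the receptors, Cysltr1 stood in macrophage-like wells at 100.0 and 62.3 CPM in WT animals versus 41.4 and 262 in KO1 and KO2. A single well of KO2 held 2108 of the 2422 UMIs behind the last value, and without it the level was 38.5. The class II-high cluster stood at 120.4 and 40.5 in WT, which overlapped with the macrophage-like values. Cluster 6 stood at 118 in WT1, with 288 of its 358 UMIs in 1 well, and fibroblast-like wells held 1.21 to 19.4. The macrophage-like level was not the highest in KO1. There cluster 5 stood at 74.8 (103 of 219 UMIs in 1 well) and the 19 class II-high wells at 68.1. Endothelial-like wells of KO1 stood at 50.9, with 285 of 434 UMIs in 1 well. Ltb4r1 UMIs were few in every class. Macrophage-like wells held 2.06 to 3.99 CPM over the 4 animals and neutrophil-like wells 1.60 to 6.11. The class II-high cluster held 4.45 and 2.08 in WT1 and WT2 and 7.04 in the 19 wells of KO1. Its 6 wells of KO2 had 0 Ltb4r1 UMIs. Cluster 6 held 22.8 in WT2, with 48 of 58 UMIs in 1 well, and 0.563 to 2.64 in the other animals. In all, 9 NCM wells had at least 10 Ltb4r1 UMIs. With thinning, 0 to 4.44% of macrophage-like and 0 to 4.88% of neutrophil-like wells had an Ltb4r1 UMI. Fibroblast-like wells had 0 to 2.20%, and these thinned ranges overlapped. In level, fibroblast-like wells held 0.290, 0.845, 1.52 and 1.55 CPM in WT1, WT2, KO1 and KO2. Each value lay below the macrophage-like level of the same animal. As counted, 12.8 to 13.7% of macrophage-like and 1.53 to 6.49% of fibroblast-like wells had an Ltb4r1 UMI, shares that move with depth. Cysltr2 had 49 UMIs in 4 NCM wells, 46 of them in 2 macrophage-like wells of WT2.

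**Figure D2:**
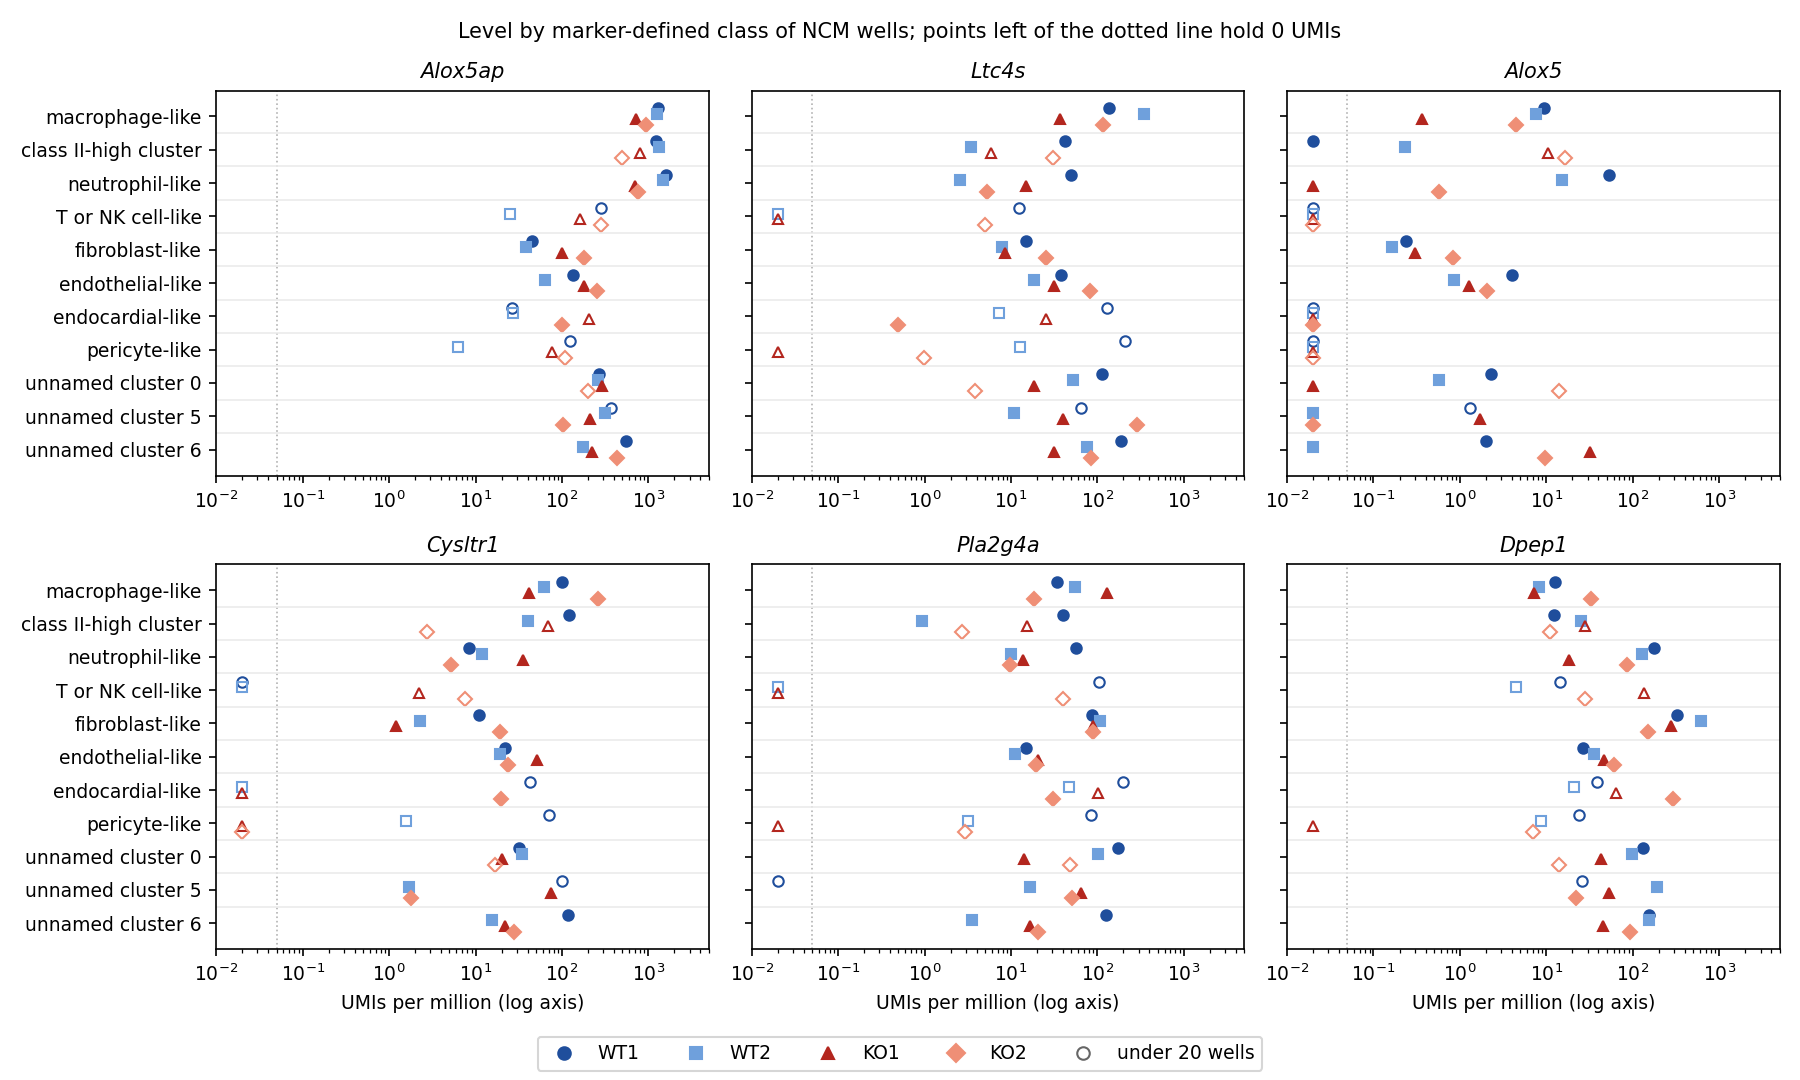
CPM (log axis) of 6 of the genes in each class of NCM wells, with 1 symbol per animal; open symbols rest on fewer than 20 wells, and symbols left of the dotted line stand for 0 UMIs. Alox5ap lies to the right in macrophage-like, neutrophil-like and class II-high wells (500 to 1584), and Dpep1 lies at 151 to 611 in fibroblast-like wells.

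**Figure D3:**
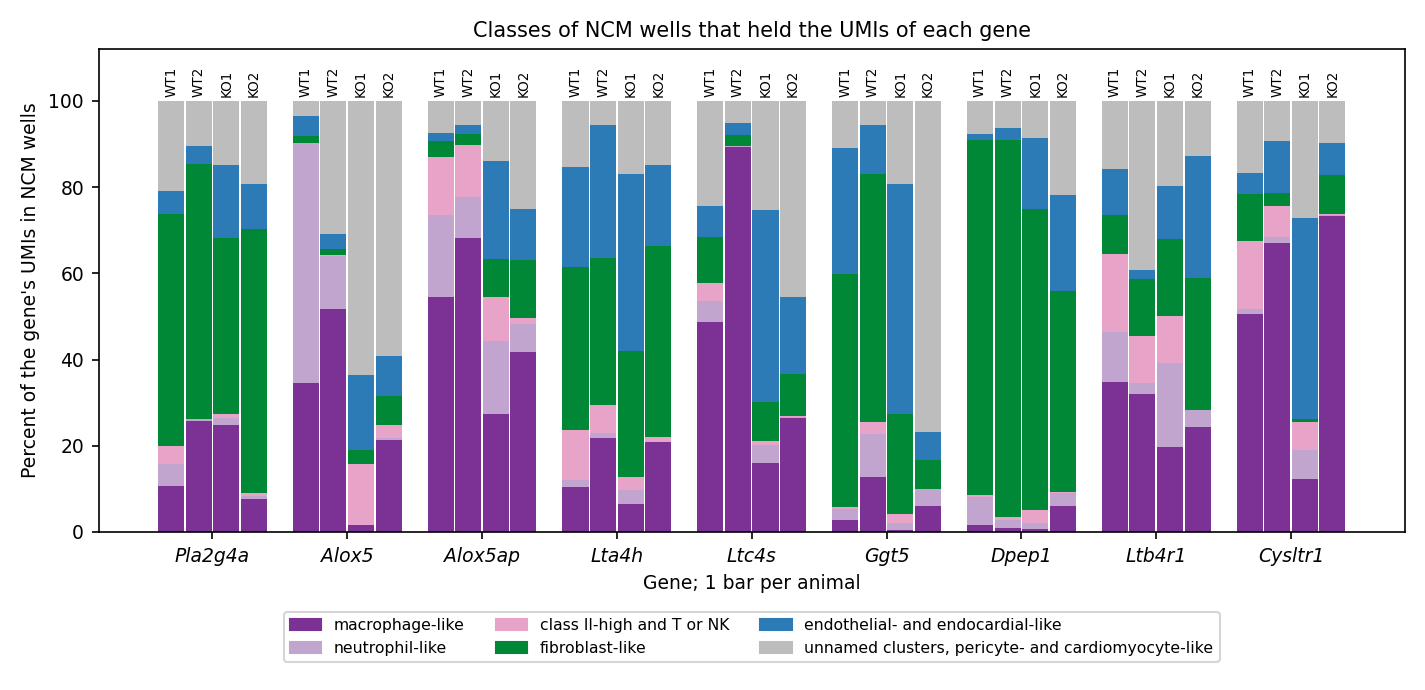
Percent of each gene's NCM UMIs (vertical axis) held by groups of wells, with 1 stacked bar per animal and gene; Cysltr2 is left out for its 49 UMIs. Fibroblast-like wells hold 46.6 to 87.7% of Dpep1 UMIs, and macrophage-like wells hold 27.3 to 68.3% of Alox5ap UMIs and 16.0 to 89.4% of Ltc4s UMIs. Bars are not scaled by the share of all UMIs that a group of wells held.

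Wells were also read for which steps occurred together. All 10 macrophage-like wells and all 8 neutrophil-like wells with at least 10 Alox5 UMIs had at least 10 Alox5ap UMIs. Across NCM wells this held for 20 of 25. Among all wells of each class, 260 of 311 macrophage-like and 113 of 187 neutrophil-like wells had at least 10 Alox5ap UMIs. For all NCM wells the count was 816 of 2857. Of 78 macrophage-like wells with at least 10 Ltc4s UMIs, 76 had at least 10 of Alox5ap, but 7 had at least 10 of Alox5. Those 7 wells were the only ones of 2857 with at least 10 UMIs of Alox5, Alox5ap and Ltc4s together, and all 7 were macrophage-like. In fibroblast-like wells, 49 of 103 wells with at least 10 Pla2g4a UMIs also had at least 10 of Dpep1. Of all 510 fibroblast-like wells, 233 had at least 10 Dpep1 UMIs, so the share among wells high in Pla2g4a lay near that of the class. Of 31 fibroblast-like wells high in Ggt5, 24 were high in Dpep1. These counts move with the depth of a well, since macrophage-like and fibroblast-like wells were among the deepest (medians of 50564 to 200790 and 45864 to 172469 UMIs outside mitochondrial and haemoglobin genes, per animal).

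Over 29 sums of animal and cluster, the genes whose level was most like that of Alox5ap were Fcer1g and Tyrobp, adaptors of myeloid receptors, and Cd52 (Pearson r of 0.948, 0.944 and 0.886). Dpep1 was most like Gpx3, Mfap5 and Mgp, which are extracellular or matrix proteins (0.886, 0.868 and 0.841). Ltc4s was most like Ap1b1, Stab1 and C1qb (0.777, 0.709 and 0.704), the last 2 genes of resident macrophages, and Cysltr1 most like Lair1, Cd48 and Lat2 (0.759, 0.744 and 0.733). For Lta4h they were Rbbp6, 3110040N11Rik and Mob4 (0.760 for the first), for Pla2g4a Pbk, Emc8 and Mrpl27 (0.692) and for Ggt5 Gstm2, Golga2 and Bicc1 (0.691). For the sparse genes they were Ptpn7, Pstpip1 and Tmem273 with Alox5 (0.752), Grb2, Naaa and Pcna with Ltb4r1 (0.629) and Slc40a1, Creg1 and Ncoa5 with Cysltr2 (0.579). The 10 genes did not form a single pattern: the highest correlation between any 2 of them was 0.51 (Alox5ap and Cysltr1), and the lowest -0.58 (Cysltr1 and Ggt5), with Alox5ap and Dpep1 at -0.53. The sums share libraries and animals, so these correlations are descriptions.

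KO and WT animals were then compared over all NCM wells with edgeR's quasi-likelihood test, fitted over all genes and adjusted by Benjamini-Hochberg. Dpep1, Alox5ap, Pla2g4a and Alox5 were the 4 of 9 tested genes with both KO animals below both WT animals, against 18.3% of all 17216 genes tested. None of the 9 had both KO animals above, against 26.9% of all genes. Of the 9, 7 had a log2 difference below 0, against 50.3% of all genes. The difference was -1.24 (SE 0.245) for Dpep1, -0.81 (SE 0.257) for Alox5ap, -0.62 (SE 0.277) for Pla2g4a and -0.92 (SE 0.721) for Alox5. None passed: edgeR's adjusted p was 0.339, 0.357, 0.432 and 0.634 in that order. No gene of the whole table passed either (0%), at an unadjusted p under 0.05 there were 2 members (Dpep1 and Alox5ap) and 12.1% of all genes, and DESeq2 called Dpep1 alone of the set (adjusted p = 0.0120 by DESeq2) and 3.65% of genes. For Ltc4s the log2 difference was -0.90 (SE 0.595), for Cysltr1 0.32 (SE 0.442), for Ggt5 0.42 (SE 0.564), for Ltb4r1 -0.15 (SE 0.928) and for Lta4h -0.10 (SE 0.294), and the last 4 of these changed sign when 1 animal was left out. For Ltb4r1 and Lta4h the mean level in CPM was slightly higher in KO (1.78 against 1.75 and 42.4 against 40.3), so the sign of the fit, which uses TMM scaling, was not that of the levels. Without the single well richest in the gene in each animal, the KO mean of Cysltr1 moved from above the WT mean (48.2 against 35.3 CPM) to below it (23.6 against 30.4), and that of Ggt5 did likewise (26.3 against 18.0, then 12.5 against 14.8). In sums over a fraction, fewer cells of a type and less RNA per cell cannot be told apart. Macrophage-like wells made up 15.8 and 13.5% of NCM wells in WT animals versus 6.57 and 8.03% in KO, and fibroblast-like wells 22.3 and 18.5% in WT animals versus 13.3 and 17.5% in KO. The part of these shares in the differences above was not tested.

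Within fibroblast-like wells Alox5ap lay the other way. It stood at 44.6 and 38.3 CPM in WT1 and WT2, against 99.9 and 181 in KO1 and KO2, a log2 difference of 1.61 (SE 0.431). Dpep1 stood at 324 and 611 in WT animals versus 279 and 151 in KO (a log2 difference of -1.32, SE 0.418), and Ggt5 at 18.5 and 36.3 in WT animals versus 13.6 and 8.85 in KO (a log2 difference of -1.48, SE 0.678). None passed in edgeR's test (adjusted p of 0.429 for Alox5ap, 0.437 for Dpep1 and 0.507 for Ggt5). Alox5ap, Lta4h and Ltb4r1 were the 3 of 8 tested genes with both KO animals above (24.4% of 14316 genes), and Dpep1 and Ggt5 the 2 with both below (18.4%). In KO2, 1 well held 23 of the 24 Ltb4r1 UMIs, and 2 of 131 wells had any. The place of KO2 above WT for Ltb4r1 thus rested on that well. Of Lta4h, 1 well of KO2 held 429 of 877 UMIs, and the place of KO2 above WT for Lta4h rested on it. After thinning, shares of wells with a UMI overlapped for Ggt5 (3.27 and 14.7% in WT animals versus 7.69 and 3.91% in KO). They also overlapped for Lta4h (17.0 and 10.9% versus 11.0 and 13.3%). They did not for Alox5ap (23.5 and 17.8% versus 33.0 and 32.0%) or Dpep1 (56.9 and 69.8% versus 49.5 and 40.6%). No gene passed (0%), 2 members had an unadjusted p under 0.05 (10.4% of genes), and DESeq2 called Alox5ap (2.96% of genes). The 10 macrophage markers together were also higher in both KO animals, at 0.0662 and 0.119% of the UMIs of these wells beside 0.0481 and 0.0386% in WT, with none of the 10 at 0, and their part in the Alox5ap level was not tested. The median depth of these wells was 172469 and 128166 UMIs in WT animals versus 45864 and 78950 in KO.

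In macrophage-like wells the levels of Ltc4s, Alox5ap and Alox5 were lower in both KO animals than in either WT animal. The log2 differences were -1.74 (SE 0.795) for Ltc4s, -0.75 (SE 0.330) for Alox5ap and -1.78 (SE 1.52) for Alox5, from the levels given above. These were 3 of 9 tested genes, against 19.3% of 12421 genes, and 0 of 9 lay above in both (20.7%). edgeR's adjusted p was 0.563, 0.557 and 0.762. No gene passed in edgeR (0%), no member had an unadjusted p under 0.05 (9.25% of genes), and DESeq2 called no member (3.48% of genes). Macrophage markers took 1.07 and 1.42% of UMIs in WT animals versus 0.938 and 0.997% in KO, and endothelial markers 0.0522 and 0.0605% in WT animals versus 0.414 and 0.184% in KO, and the part of either in these levels was not tested. Groups overlapped for the other 6 tested genes, among them Cysltr1 and Pla2g4a.

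In neutrophil-like wells, Alox5ap stood at 1584 and 1463 CPM in WT animals versus 693 and 758 in KO (a log2 difference of -1.38, SE 0.509, edgeR adjusted p = 0.505). Alox5 had 290 and 47 UMIs in WT1 and WT2, against 0 and 1 in KO1 and KO2. Wells with an Alox5 UMI made up 23.7 and 20.5% in WT1 and WT2, 0 of 45 in KO1 (which allows up to 6.67%) and 1 of 27 in KO2 (3.70%, exact 95% interval up to 19.0%). Thinned, the shares were 13.9 and 8.33% in WT and 0 of 41 and 0 of 25 wells in KO. The median depth of these wells was 47023 and 56614 UMIs in WT animals versus 30215 and 47011 in KO. Dpep1 stood at 175 and 126 in WT animals versus 18.3 and 85.8 in KO, and 1 well of WT1 held 759 of its 954 UMIs. Alox5ap, Alox5 and Dpep1 were the 3 of 8 tested genes with both KO animals below in level, against 15.9% of 8542 genes, and 0 of 8 lay above (21.8%). edgeR called 1 gene (0.0117%), Nfkbia, an inhibitor of NF-kB that is no member and was named after its value was seen, and gave Alox5 an adjusted p of 0.476; Alox5 and Alox5ap had an unadjusted p under 0.05 (8.56% of genes), and DESeq2 called Alox5 (3.86% of genes, adjusted p = 0.0274 by DESeq2). The neutrophil markers themselves took 2.82 and 2.47% of UMIs in WT animals versus 0.720 and 1.36% in KO, with 1 of 10 at 0 in each animal, and their part in these levels was not tested.

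Endothelial-like wells gave the opposite order of levels for several genes. Alox5ap stood at 134 and 62.9 CPM in WT animals versus 178 and 254 in KO. With Cysltr1, Pla2g4a and Dpep1 it made 4 of 9 tested genes with both KO animals above in level (26.2% of 12650 genes). After thinning, the shares of wells with a UMI overlapped between genotypes for all 4 genes. For Alox5ap they were 31.3 and 19.2% in WT animals versus 30.2 and 38.9% in KO. For Dpep1 they were 13.4 and 19.2% in WT animals versus 13.1 and 18.1% in KO. The log2 difference of Cysltr1 and Pla2g4a changed sign, however, under 3 other clusterings. Single wells held 87 of 134, 132 of 290, 285 of 434 and 134 of 209 Cysltr1 UMIs in WT1, WT2, KO1 and KO2. The Cysltr1 level of KO2 (23.7) lay just above that of WT1 (22.1). Lta4h, at 136 and 70.7 in WT animals versus 59.2 and 37.2 in KO, was the 1 gene with both below (15.3%), at a log2 difference of -1.33 (SE 0.562, edgeR adjusted p = 0.547). Neither edgeR (0% of genes; 9.16% and 0 members at an unadjusted p under 0.05) nor DESeq2 (2.43% of genes) called a member. Macrophage markers took 0.0939 and 0.105% of UMIs in these WT wells and 0.187 and 0.179% in KO, and their part was not tested. In cluster 6, Dpep1 stood at 154 and 153 in WT animals versus 45.7 and 93.5 in KO (1 of 8 tested genes below in both, 11% of genes) and Alox5 was above in both KO animals (1 of 8), with 6 and 0 UMIs in WT animals versus 35 and 103 in KO (23.9% of genes), of which single wells held 35 and 69; no member was called there by edgeR (0%; 6.24% and 0 members at an unadjusted p under 0.05) or DESeq2 (2.33%). Leaving out 1 animal at a time moved the count of genes called by edgeR to 3 to 63 in neutrophil-like wells and to 8 to 150 in cluster 6, with the highest counts without WT1.

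**Figure D4:**
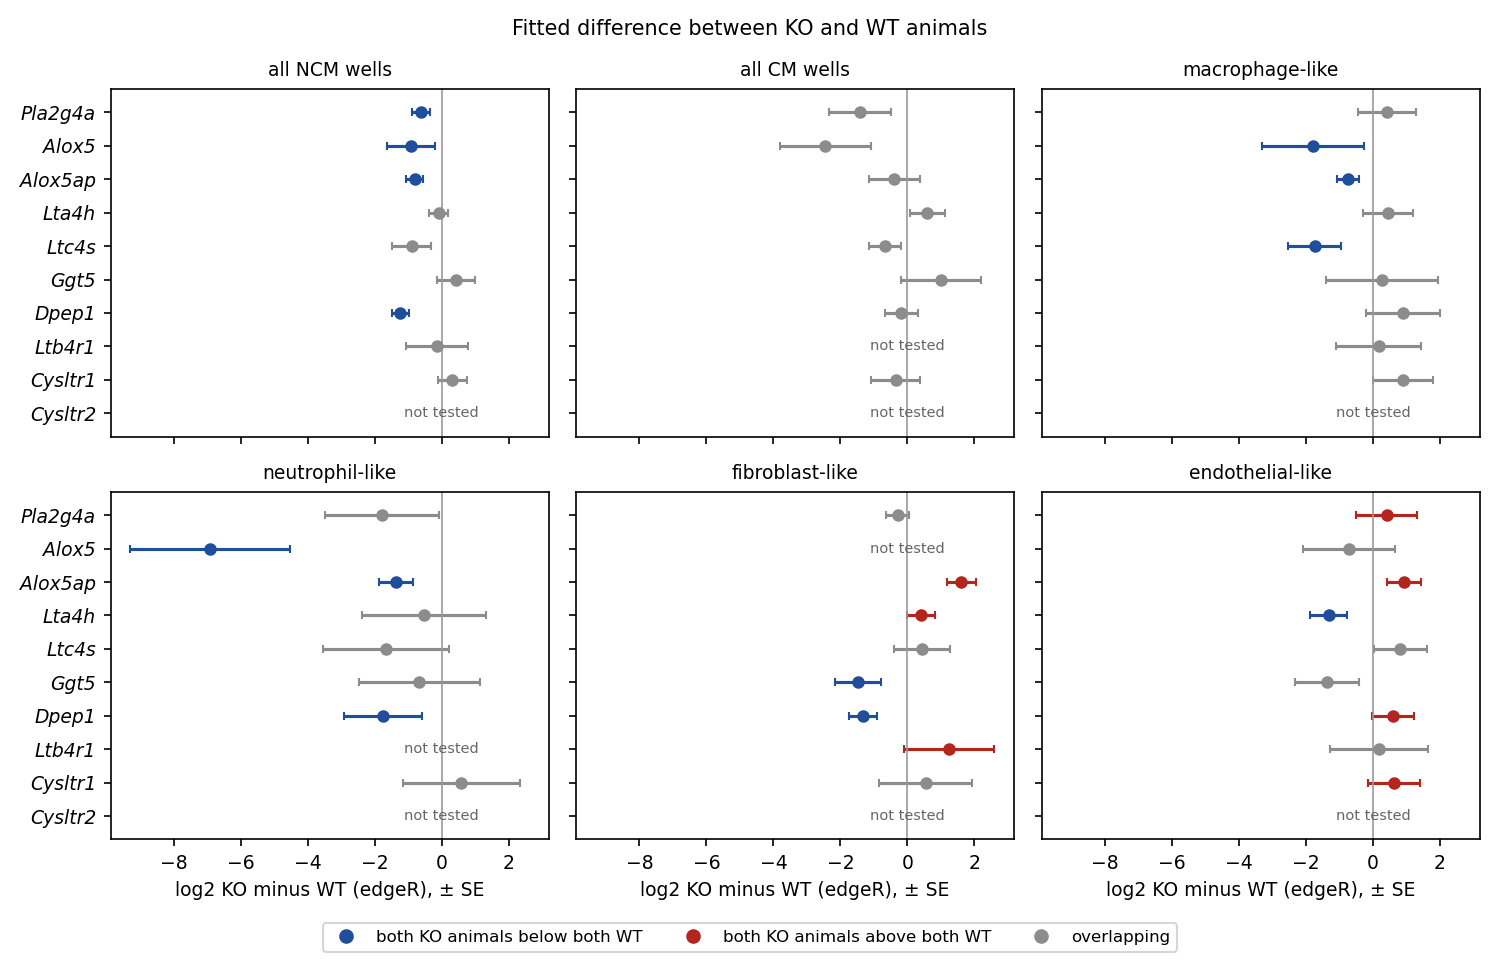
Log2 difference between KO and WT animals (horizontal axis, edgeR fit, bars show ± 1 SE) for the 10 genes in all NCM wells, all CM wells and 4 classes of NCM wells; colours show whether the 2 KO animals lie below, above or among the 2 WT animals. No value passed edgeR's adjusted threshold of 0.05, Alox5ap lies left of 0 in macrophage-like and neutrophil-like wells and right of 0 in fibroblast-like and endothelial-like wells, and the fitted Alox5 value in neutrophil-like wells rests on 1 KO UMI.

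In CM wells no gene of the set separated the genotypes. Alox5ap stood at 195 and 80.7 CPM in WT animals versus 216 and 33.0 in KO, and Dpep1 at 13.2 and 11.0 in WT animals versus 15.1 and 8.59 in KO. Groups overlapped for all 9 genes with a UMI there, against 15.8% of 14462 genes tested with both KO animals above and 12.7% with both below. None of 8 tested genes passed in edgeR (0% of genes, 3.44% at an unadjusted p under 0.05 and 0 members) or DESeq2 (0.338% of genes). Macrophage-like wells, 106 of the CM wells, held 83.9, 81.5, 73.3 and 67.4% of the Alox5ap UMIs of the CM fraction, whereas cardiomyocyte-like wells stood at 8.82 to 51.7 CPM. In those macrophage-like CM wells Ltc4s stood at 101 and 157 in WT animals versus 38.8 and 28.6 in KO, on 23 to 34 wells per animal and with no fit made, and both KO animals lay below both WT animals there as well. The difference between the NCM and CM effects was tested itself, with the animal as a block. It was -1.08 (SE 0.469) on the log2 scale for Dpep1 and -0.21 (SE 0.907) for Alox5ap, with edgeR adjusted p of 0.951 and 1.00, and no gene passed (0%; 4.95% at an unadjusted p under 0.05, 0 members; 0.767% and 0 members by DESeq2).

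The share of NCM wells with a UMI gave a partly different picture from the level. Thinned to 10000 UMIs, Dpep1 was found in 26.2 and 30.7% of WT wells and 19.2 and 24.0% of KO wells, Ltc4s in 14.9 and 13.5% and 9.69 and 12.4%, and Lta4h in 13.6 and 12.9% and 10.5 and 12.1%. These 3 of the 9 tested genes had both KO animals below both WT animals, against 18.3% of all 17216 genes by the same count. Ltb4r1 was the 1 gene with both above (25.6% of all genes), at a mean of 1.42% in WT and 1.78% in KO. Alox5ap overlapped, at 50.5 and 37.0% in WT animals versus 40.4 and 44.1% in KO. Each separation gave an exact two-sided permutation p of 0.333, the smallest this design allows. Before thinning, 8 of the 9 tested genes had both KO animals below and 0 both above, against 49.4 and 7.19% of all genes. Among the 8 was Alox5ap at 69.5 and 63.4% in WT animals versus 49.0 and 61.6% in KO, with median depths of 53343 and 62963 UMIs in WT animals versus 24379 and 43941 in KO.

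Of 27 other genes of the wider pathway, 21 were tested in NCM wells, and 0 passed in edgeR (4 at an unadjusted p under 0.05, 2 called by DESeq2). Their median log2 difference was 0.28, beside -0.62 for the 9 tested members and -0.01 for all genes. By the naming rule, Cyp4f18, which inactivates leukotriene B4, stood at 149.9 and 72.1 CPM in WT animals versus 33.9 and 47.3 in KO (a log2 difference of -1.59, SE 0.421, edgeR adjusted p = 0.339). Fpr2, a receptor for formyl peptides and lipoxin, stood at 38.1 and 19.1 in WT animals versus 15.5 and 13.9 in KO. Dpep2, a relative of Dpep1, stood at 65.8 and 80.6 in WT animals versus 56.8 and 53.3 in KO, and Mapkapk2, a kinase that phosphorylates 5-lipoxygenase, at 32.8 and 34.8 in WT animals versus 58.7 and 52.8 in KO. The rule chose these 4 for the lack of overlap. Of the 21 tested genes, 6 had both KO animals below and 6 both above, against 18.3 and 26.9% of all genes, and 9 overlapped. Cyp4f18 was also among the leading genes of the neutrophil-like cluster, whose share of NCM wells was 11.0 and 5.55% in WT animals versus 6.29 and 3.61% in KO.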

How the data were processed

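The authors deposited tables of UMI counts per gene and well, made with STAR 2.5.2b, featureCounts and Subread 1.4.6-p1 on mm10, per the submitters' processing notes. How UMIs were collapsed, which annotation release was used and whether strand was counted is not given in the sources used here. Each well's counts summed to the number of distinct gene and UMI combinations in the deposited per-well reports, which also name the animal of each well. The 10 genes, the gene lists and the motifs were chosen with earlier results of these data known.

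Kept wells had at least 10000 UMIs and 300 genes. Wells were clustered with scanpy 1.11.5 (2000 variable genes, 30 components, 15 neighbours, Leiden resolution 1.0) without the 10 genes, and a cluster was named from at least 3 markers of 1 of 19 lists among its 30 leading genes. Cluster 4 met the rule for dendritic cells but was led by Igkc and class II genes, so it was not given that name. Scrublet called 20, 10, 0 and 3 doublets in the 4 libraries, which were kept. Counts were summed per animal, mitochondrial and haemoglobin genes left out, and tested with edgeR 4.0.16 (quasi-likelihood, TMM, filterByExpr, Benjamini-Hochberg at 0.05) in R 4.3.3, 1 fit per fraction and per class with at least 20 wells in every animal. DESeq2 1.42.0 was an alternative. The edgeR fit of all NCM wells was also run on simulated counts, with changes larger than those of the members there. Fits of CM wells and of single classes were not simulated. Named genes were the 10 members, up to 4 other pathway genes with the largest difference in NCM wells among those averaging 10 CPM or more without overlap between genotypes, and the 3 genes most like each member.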

Additional observations from a re-analysis of the deposited data

How the results depend on the processing

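With edgeR at its main settings, no member passed the threshold in any comparison of the report. With DESeq2, 1 member passed in all NCM wells (Dpep1), 1 in fibroblast-like wells (Alox5ap) and 1 in neutrophil-like wells (Alox5). With edgeR run without the filter on low counts, 1 passed in all NCM wells and 2 in fibroblast-like wells (Alox5ap and Dpep1). Genes of the whole table called by DESeq2 and without the filter numbered 579 and 226 in NCM wells, 48 and 47 in CM wells, 116 and 43 for the difference of effects, 278 and 181 in endothelial-like, 383 and 280 in fibroblast-like, 399 and 243 in macrophage-like, 304 and 121 in neutrophil-like and 190 and 66 in cluster 6 wells. The neutrophil-like count also moved from 1 to 8 with mitochondrial and haemoglobin genes kept, 18 at Leiden resolution 0.6, 16 with the members kept for clustering and 0 with mitochondrial and haemoglobin genes left out of clustering. Plain library totals gave 1 macrophage-like gene, and Leiden resolution 1.5 gave 1 endothelial-like gene. Plain totals moved the median of all genes to 0.16 in NCM wells (log2). Leaving out 1 animal at a time gave 0 to 1 genes in NCM wells, 0 to 5 for the difference of effects, 0 to 5 in endothelial-like, 0 to 1 in fibroblast-like, 3 (without KO2) to 63 (without WT1) in neutrophil-like and 8 (without KO1) to 150 (without WT1) in cluster 6 wells; the lone animal of an arm is then assumed to vary like the other group.

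In NCM wells the log2 difference of Lta4h became 0.027 with library sums, 0.073 with plain totals and -0.21 to 0.022 without 1 animal. Ltb4r1 became 0.025 with plain totals and -0.42 to 0.16 without 1 animal, Cysltr1 -0.033 with both fractions summed and -0.23 to 0.74 without 1 animal, and Ggt5 -0.53 to 0.99. For the difference of effects, leaving out 1 animal gave -0.32 to 2.10 for Alox5, -1.57 to 1.24 for Alox5ap and -0.094 to 1.88 for Pla2g4a. In endothelial-like wells Cysltr1 became -0.93 at Leiden resolution 1.5, -1.47 with the members kept for clustering and -1.10 with mitochondrial and haemoglobin genes left out of it, and Pla2g4a -0.36, -0.32 and -0.024. Without thinning, 8 members had a lower share of wells in both KO animals and 0 a higher one, against 49.4 and 7.19% of all genes. Without 1 animal these counts were 4 to 7 and 1 to 3. The causes were not tested.

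The replicate block, which pairs animals by number, gave 36 genes in neutrophil-like and 3 in cluster 6 wells and no member. The animals share only a number: the correlation of same-numbered deviations was -0.02 in NCM and 0.35 in CM wells. Of 512 single values under alternatives, 478 stayed on the same side, 8 passed the threshold that the main value missed, 20 changed sign and 6 others moved. Leaving out the richest well per animal was chosen after seeing the data. The fit of wells under 30% mitochondrial UMIs was not run for NCM wells, since KO1 had under 20 such wells, and macrophage-like wells were not fitted with mitochondrial and haemoglobin genes left out of clustering.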
